A study of Mus musculus with 7 samples.

Results

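The 8 genes Sox10, Erbb3, Foxd3, Ngfr, S100b, Gap43, Twist1 and Prrx1 were taken by symbol from the 33696 genes of the deposited matrices, and all 8 were found. They were followed through single-cell RNA profiles of 7 mouse tumors to see how much of a Schwann cell or neural crest program the tumor cells carried. The tumors were subcutaneous grafts of JW23.3, a mouse MPNST (malignant peripheral nerve sheath tumor) line in which Nf1 and Trp53 are both disrupted. The cells were implanted into the flank of female wildtype C57/B6 animals aged 5 to 6 weeks. At day 7 the mice were randomized by tumor size, and 4 tumors then received 5 daily fractions of 2 Gy delivered locally behind lead shielding, while 3 control tumors received none. All were harvested at day 21, dissociated with papain and profiled with a 3' single-cell assay that counts unique molecular identifiers (UMIs, 1 per captured transcript). Every tumor came from the same cell line, so the 7 tumors are replicates of the graft and not of independent MPNSTs.

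MPNST arises in the Schwann cell lineage, the glia that wrap peripheral axons, and Schwann cells themselves descend from the neural crest. Sox10 is the transcription factor that specifies and maintains both, Foxd3 is an early crest and glial precursor factor, Erbb3 is the receptor through which axonal neuregulin keeps Schwann cells alive, and Ngfr (p75) is the low-affinity neurotrophin receptor of immature and denervated Schwann cells. S100b is a calcium-binding protein used as a Schwann cell stain that chondrocytes and other cells also make, and Gap43 is a growth-associated membrane protein of growing axons and of Schwann cells that have lost axon contact. Twist1 and Prrx1 are transcription factors of mesenchyme, including crest-derived mesenchyme, and are not part of the mature Schwann cell program.

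RefSeq promoter windows were available for 5 of the 8 genes, and 3 are printed because they belong to the 3 kinds of behavior found below. S100b was detected in 19.8% of tumor-gate cells at full depth and 5.91% at 3000 UMIs per cell, Foxd3 had no UMI in any, and Twist1 was detected in 86.4% at full depth and 42.0% at 3000 UMIs. Each line is the 250 bases before the annotated start on GRCm38.p6, 5′ to 3′ on the gene's strand, with CG dinucleotides in capitals. S100b lies at chr10:76253586-76253835 on the plus strand, Foxd3 at chr4:99656049-99656298 on the plus strand and Twist1 at chr12:33957421-33957670 on the plus strand.
S100b: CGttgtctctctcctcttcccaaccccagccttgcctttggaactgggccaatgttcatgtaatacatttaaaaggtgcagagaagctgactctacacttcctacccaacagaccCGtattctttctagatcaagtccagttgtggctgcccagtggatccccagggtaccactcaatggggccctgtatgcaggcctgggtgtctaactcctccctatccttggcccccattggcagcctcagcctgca
Foxd3: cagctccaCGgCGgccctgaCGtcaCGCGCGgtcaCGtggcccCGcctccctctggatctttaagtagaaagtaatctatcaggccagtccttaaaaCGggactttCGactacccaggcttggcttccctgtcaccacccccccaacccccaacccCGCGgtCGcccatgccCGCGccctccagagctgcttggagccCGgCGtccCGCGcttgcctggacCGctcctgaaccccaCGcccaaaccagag
Twist1: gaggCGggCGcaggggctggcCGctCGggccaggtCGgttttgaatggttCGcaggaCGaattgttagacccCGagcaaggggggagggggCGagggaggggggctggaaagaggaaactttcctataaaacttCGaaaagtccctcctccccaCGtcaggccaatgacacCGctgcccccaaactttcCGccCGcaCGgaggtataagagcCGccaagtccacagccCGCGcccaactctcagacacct
The S100b window held 2 CG dinucleotides, the Foxd3 window 21 and the Twist1 window 18, against a median of 6 over 32851 promoter windows of the same length. The Ngfr window held 16 and the Prrx1 window 4. The SOX core ACAAT, searched on both strands, occurred once in the Twist1 window and in none of the other 4, where 27.7% of all windows held it. The E-box CANNTG, the core bound by Twist1 and other basic helix-loop-helix factors, occurred in the Foxd3, Ngfr and S100b windows and not in those of Twist1 or Prrx1, where 66.2% of all windows held it (a CG can lie inside an E-box). These counts describe letters only.

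A total of 34297 of 39537 deposited cells passed the filters. Libraries held 2859 to 8452 cells with median depths of 6058.5 to 17930.5 UMIs, and any pair of libraries shared 3 to 19 cell barcodes, at most 0.397% of the smaller library. Cells were classed by marker lists that contain none of the 8 genes. A tumor-gate cell expressed the tumor list (Col11a1, Col5a1, Col5a2, Col1a1, Col1a2, Col3a1, H19, Crabp1, Mdk) at 32 or more UMIs per 10000, had no UMI of Xist, which the female host transcribes and the male tumor line does not, and had no UMI of the leukocyte gene Ptprc. Such a cell also stayed within upper limits of 8 UMIs per 10000 on the macrophage and T/NK lists and 32 on the endothelial and pericyte lists. This gate took 15050 cells with a median of 22422.5 UMIs. The host gates took 11123 macrophage-like, 1177 T/NK-like, 484 endothelial-like, 238 fibroblast-like, 180 pericyte-like, 118 dendritic-like, 50 keratinocyte-list and 16 Schwann-like cells, and 5810 cells met no gate or more than 1. Of those, 3104 passed the tumor-list level, 1694 of them with an Xist UMI and 1377 with a Ptprc UMI. Because the tumor gate asks for collagen transcripts, a tumor cell without them would not be counted in it.

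The regulators and receptors that define a Schwann cell were close to absent from the tumor-gate cells. Levels below are in counts-per-million (CPM), a gene's UMIs scaled to the summed UMIs of all genes in the same cells, and since 3' counting yields 1 tag per transcript they were not divided by gene length. Sox10 had 11 UMIs in 403261286, in 11 of 15050 cells (0.0273 CPM). They came from irradiated 1 (4 UMIs), irradiated 3 (1) and control 1 (6), and the other 4 tumors had none. Tumors with and without a Sox10 UMI were therefore present in both groups.

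Foxd3 had no UMI in any tumor-gate cell, which allows a share of up to 0.0199% of cells and a level of up to 0.00744 CPM. Ngfr had 13 UMIs in 11 cells (0.0322 CPM), 7 of them in irradiated 1 and 2 each in irradiated 3, control 1 and control 2. Erbb3 had 52 UMIs in 33 cells (0.129 CPM). Its level was 0.226, 0.0335, 0.0194 and 0.0426 CPM in irradiated 1 to 4 and 0.107, 0.0920 and 0.227 CPM in control 1 to 3. Irradiated 1 and control 3 stood highest, and the groups overlapped. In all, 55 tumor-gate cells had a UMI of Sox10, Erbb3, Foxd3 or Ngfr, and no cell had UMIs of 2 of them.

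Detection was next compared at 1 depth, by thinning every cell to 3000 UMIs and leaving out shallower ones. Sox10 was then found in 0 of 14269 tumor-gate cells (95% Wilson upper bound 0.0269%) and in 2 of 8972 macrophage-gate cells, 0.0223%. The share in the tumor gate was thus not above that in macrophage-like cells, which should lack the gene. Before thinning the macrophage gate had 8 Sox10 UMIs, of which 6 were in 1 cell of irradiated 2 that also passed the Schwann list and had 6 S100b UMIs. Erbb3 was found in 0.0280% of tumor-gate cells and in 0.346% of macrophage-gate cells, and Ngfr in 1 tumor-gate cell. Before thinning, the Erbb3 shares were 0.219% at a median of 22422.5 UMIs and 1.02% at a median of 6647 UMIs. All intervals and upper limits cover counting error only.

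The same assay did detect the program in host nerve cells of the same tumors. The 16 cells of the host Schwann gate, chosen on Mbp, Cdh19 and other myelin and glial genes together with Xist, came from 5 tumors and held 852 to 19425 UMIs each. Sox10 was detected in 12 of them (402 CPM over the gate), S100b in 13 (504 CPM), Foxd3 in 9 (196 CPM), Erbb3 in 7 (121 CPM) and Ngfr in 3 (46.7 CPM). In 12 of the 16 cells, 2 or more of the 6 Schwann and crest genes were detected together. Gap43 reached 299 CPM, but 25 of its 32 UMIs were in 1 cell. Twist1 had no UMI there, which allows up to 28.0 CPM, and Prrx1 had 2 UMIs.

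The host Schwann gate asks for an Xist UMI, so cells that passed the Schwann list without one were counted apart. Over all kept cells, 25 passed the Schwann list at 32 or more UMIs per 10000, of which 7 had no Xist UMI and 1 fell in the tumor gate. That cell, in control 2, had 1366 UMIs and 1 Erbb3 UMI. Over the whole data set Sox10 had 135 UMIs, of which the 16 host Schwann cells held 31.9%, the 50 keratinocyte-list cells 28.1% and the 15050 tumor-gate cells 8.15%. Foxd3 had 33 UMIs, 63.6% of them in the host Schwann gate and the other 36.4% in 6 cells with no gate, 2 of which passed the Schwann list. In the cells without a gate, 17 had a Sox10 UMI, of which 5 passed the Schwann list and 5 the keratinocyte list. These 5 Schwann-list cells (1 in irradiated 4, 1 in control 1 and 3 in control 2) had 1 or 2 Sox10 UMIs, no Xist UMI and 913 to 4384 UMIs in all, so that 5 of the 7 Schwann-list cells without Xist carried Sox10. Their tumor-list levels ran from 7.85 to 34.7 UMIs per 10000. The median was 21.2 in the host Schwann gate and 168.5 in the tumor gate, which itself asks for 32 or more. The cell at 34.7, in control 2, passed that level without entering the tumor gate. Whether these 5 were tumor cells or host cells in which Xist was missed at these depths was not tested.

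Outside the Schwann gate the receptors and Sox10 sat in different host cells. Sox10 reached 33.7 CPM in the keratinocyte-list cells (17 of 50 cells) and Erbb3 83.3 CPM (27 of 50), and these cells also carried the keratins Krt8 (1861 CPM), Krt18 (2202 CPM) and Krt19 (2965 CPM) of simple and glandular epithelium. They came from irradiated 2, 3 and 4 and control 2, where Sox10 stood at 98.4, 15.2, 20.3 and 37.9 CPM. With 6 to 21 such cells per tumor, no test was made.

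Outside the host Schwann gate Ngfr was highest in pericyte-like cells, which wrap small vessels. In the 5 tumors with at least 20 such cells it averaged 19.4 ± 8.68 CPM (SD, n = 5; range 9.36 to 30.7), against 0.0264 ± 0.0320 CPM in the tumor gate (SD, n = 7; highest 0.0877). The ranges of the 2 classes did not overlap, a separation not counted over all genes, of which 47.8% were called between these classes. Fibroblast-like cells stood between them at 1.86 ± 2.22 CPM (SD, n = 4), and the macrophage, T/NK and endothelial gates had no Ngfr UMI. These levels are given without a test, because a gene so low in tumor cells passed the filter on low counts through its host level.

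Erbb3 showed a low level in macrophage-like cells. It stood at 0.858 to 1.56 CPM over the 7 tumors (mean 1.25 ± 0.239), above the tumor-gate value in every tumor (mean 0.107 ± 0.0875), and the ranges did not overlap. Such separation was not counted over all genes, of which 82.3% were called between these classes. Erbb3 was dropped from the fit as too low, so its levels are given without a test. T/NK-like cells had 8 Erbb3 UMIs, 5 of them in irradiated 4, 2 in irradiated 3, 1 in irradiated 2 and none in the other 4 tumors. Endothelial-like and fibroblast-like cells had no Erbb3 UMI.

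**Figure D1:**
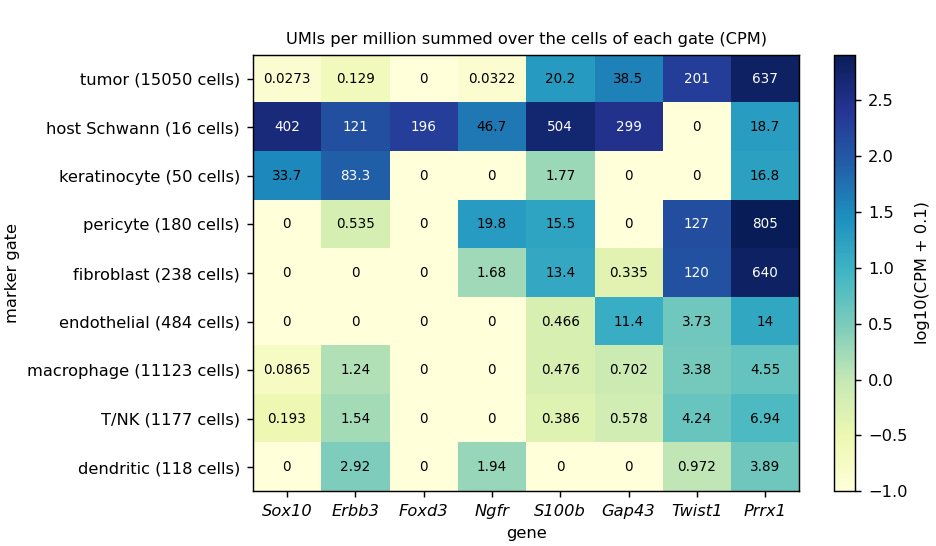
Summed level of each gene (columns) in the cells of each marker gate (rows), as CPM printed in the cell and shaded on a log10 scale of CPM plus 0.1. Sox10, Erbb3, Foxd3 and Ngfr are near 0 in the tumor row and highest in the 16 host Schwann cells, while Twist1 and Prrx1 are high in the tumor, pericyte and fibroblast rows.

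S100b and Gap43 were detected in part of the tumor cells, and Twist1 and Prrx1 in a larger share of them. S100b stood at 26.9, 19.5, 9.70 and 3.07 CPM in irradiated 1 to 4 and at 26.0, 31.0 and 10.2 CPM in control 1 to 3. Irradiated 4 stood lowest and control 2 highest, and the groups overlapped. Gap43 stood at 33.6, 24.6, 57.3 and 41.5 CPM in irradiated 1 to 4 and at 39.7, 32.6 and 38.2 CPM in control 1 to 3, a narrower spread with irradiated 3 highest.

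Twist1 varied least, at 204, 229, 204 and 184 CPM in irradiated 1 to 4 and 186, 190 and 219 CPM in control 1 to 3. Prrx1 stood at 653, 667, 649 and 787 CPM in irradiated 1 to 4 and 707, 618 and 467 CPM in control 1 to 3, with irradiated 4 highest and control 3 lowest. At 3000 UMIs per cell, S100b was detected in 5.91% of tumor-gate cells (95% Wilson interval 5.53 to 6.31), Gap43 in 7.33% (6.91 to 7.77), Twist1 in 42.0% (41.2 to 42.9) and Prrx1 in 78.1% (77.4 to 78.7). Before thinning the shares were 19.8%, 28.5%, 86.4% and 95.8%. In macrophage-gate cells, which should lack all 4, the shares at 3000 UMIs were 0.1003%, 0.212%, 0.959% and 1.29%.

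**Figure D2:**
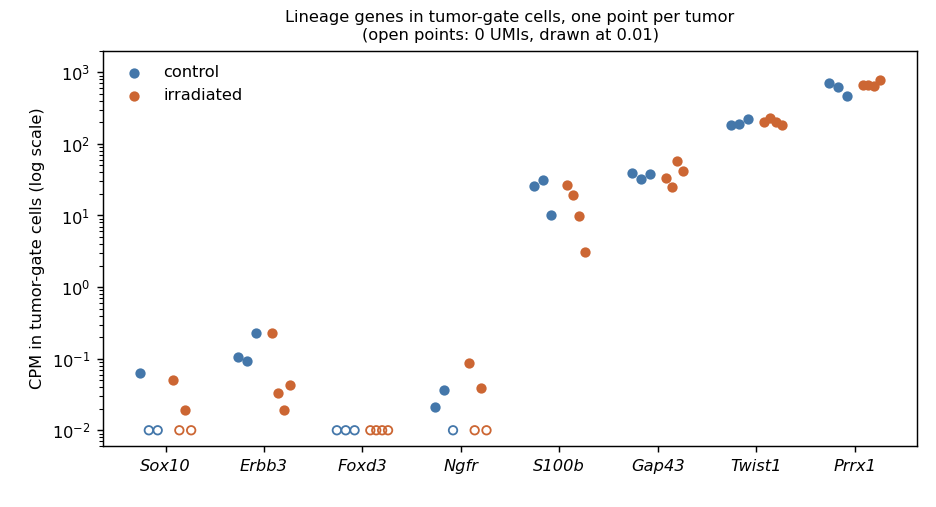
Level of each gene in the tumor-gate cells of each tumor, in CPM on a log axis, with 1 point per tumor (blue control, orange irradiated). Open points had 0 UMIs and are drawn at 0.01. S100b spreads from 3.07 to 31.0 CPM, Twist1 from 184 to 229 CPM, and irradiated and control points overlap for every gene with UMIs.

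Of all UMIs of each gene, the tumor gate held 84.4% for S100b, 75.2% for Gap43, 83.2% for Twist1 and 83.1% for Prrx1, in 43.9% of the cells. All 4 were higher in tumor-gate cells than in macrophage-like cells, with log2 differences of 4.76 (S100b), 5.49 (Gap43), 5.62 (Twist1) and 6.90 (Prrx1) by edgeR. Against the T/NK-like cells the 4 differences were 5.23, 5.97, 5.51 and 6.52, and against the endothelial-like cells 5.32, 2.01, 5.85 and 5.64. The T/NK gate held 2 UMIs of S100b and 3 of Gap43, and the endothelial gate 2 of S100b. Those differences rest on host counts near the floor, and their size is uncertain. These genes entered the fit through their counts in other classes, so those calls are not read as support. The other differences passed, and their largest edgeR adjusted p was 6.42e-06, for Gap43 against endothelial-like cells. These classes are very different from tumor cells, and of the 11900 genes tested 82.3% were called against macrophage-like cells (42.3% higher, 39.9% lower in the tumor gate), 75.9% against T/NK-like cells (40.8% higher, 35.1% lower) and 63.4% against endothelial-like cells (32.5% higher, 30.9% lower).

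The mesenchymal host cells were much closer. S100b averaged 18.1 ± 10.5 CPM in the tumor gate (n = 7), 17.4 ± 7.71 in pericyte-like cells (n = 5) and 18.1 ± 15.6 in fibroblast-like cells (n = 4), all SD over tumors. edgeR gave differences of 0.09 ± 0.45 (adjusted p = 0.886) and 0.20 ± 0.41 (adjusted p = 0.736). Prrx1 averaged 650 ± 97.3 CPM in the tumor gate, 760 ± 211 in pericyte-like and 633 ± 146 in fibroblast-like cells, with edgeR differences of -0.08 ± 0.30 (adjusted p = 0.859) and -0.23 ± 0.32 (adjusted p = 0.597). Neither gene's order among these 3 classes went beyond its spread. Of the 40 S100b UMIs in fibroblast-like cells 19 were in control 3, and without that tumor edgeR called S100b higher in the tumor gate than in fibroblast-like cells (1.21, adjusted p = 0.0234).

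Twist1 was higher in the tumor gate (202 ± 17.2 CPM) than in pericyte-like cells (108 ± 37.3 CPM), with an edgeR log2 difference of 1.02 ± 0.26 (adjusted p = 0.00179). Against the fibroblast-like cells (120 ± 24.9 CPM) the difference was 0.63 ± 0.26 (adjusted p = 0.0429 in edgeR). That last call was lost without irradiated 1 (adjusted p = 0.177), irradiated 2 (0.0629) or control 3 (0.125). Gap43 set the tumor cells apart in level from both mesenchymal classes. It averaged 38.2 ± 10.1 CPM, against 0 in 180 pericyte-like cells (up to 1.60 CPM allowed) and 0.369 ± 0.738 CPM in fibroblast-like cells. The fibroblast gate held 1 Gap43 UMI in all, and the gene entered the fit through other classes, so these levels are given without a test. Against the pericyte gate the pooled level (38.5 CPM) was at least 24-fold higher, taking 3 UMIs over the class as the floor. In these comparisons 47.8% of genes were called against pericyte-like cells (25.1% higher in the tumor gate) and 47.5% against fibroblast-like cells (23% higher). Endothelial-like cells had Gap43 at 8.36 ± 12.04 CPM, with 32 of 49 UMIs in control 3.

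Joint detection of the 6 Schwann and crest genes was rare in tumor cells. Before thinning, 447 of 15050 cells (2.97%) had UMIs of 2 or more of Sox10, S100b, Erbb3, Ngfr, Foxd3 and Gap43, and 2 cells had 3. At 3000 UMIs per cell 0.0911% had 2 or more and none had 3, and 86.8% had none of the 6. Twist1 and Prrx1, each detected in a much larger share of cells, were detected together in 32.4% of cells at that depth. Joint shares depend on how often each gene is detected alone, and no expected share was computed. In the host Schwann gate, without thinning, 9 of 16 cells had 3 or more of the 6.

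The wider lineage lists were unevenly represented in the tumor gate. A level there does not by itself set tumor cells apart, since several listed genes were as high or higher in host gates. Among 16 genes of immature Schwann cells, 4 reached 10 CPM in the tumor gate and 8 stayed under 1 CPM. Those present were the adhesion molecule Ncam1 (368 CPM), the membrane protein Pmp22 (164 CPM), the stem cell factor Sox2 (34.3 CPM) and the filament nestin, Nes (10.9 CPM). Ncam1 reached 489 CPM in fibroblast-like cells, and Pmp22 272 and Nes 145 CPM in pericyte-like cells. Sox2 stood at 2.14 CPM or below in the macrophage, T/NK, endothelial, pericyte and fibroblast gates. The glial cadherin Cdh19 stood at 1.53 CPM, against 635 CPM in the host Schwann gate, which was itself chosen in part on this gene. Of 11 myelin genes none reached 10 CPM, and the highest was Cnp at 9.57 CPM, followed by the myelin regulator Egr2 (5.51) and Ncmap (4.01).

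Among 11 neural crest specifiers 5 reached 10 CPM, namely Sox9 (224 CPM), Pax3 (130), Ets1 (67.7), Snai2 (24.1) and Tfap2a (20.4), while 5 stayed under 1 CPM. Of 12 genes of the ErbB receptors and their ligands 6 reached 10 CPM and 5 stayed under 1 CPM. The receptor Egfr stood at 225 CPM and Erbb2, the kinase partner of Erbb3, at 18.8 CPM, while Erbb4 stood at 0.305 CPM. The ligands Nrg1 (138 CPM), Hbegf (31.3), Ereg (22.9) and Areg (10.7) were present as well. In the neurotrophin list 2 of 10 reached 10 CPM, among them the p75-binding protein Maged1 (204 CPM), and 7 stayed under 1 CPM.

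Of 21 mesenchymal factors 15 reached 10 CPM, led by Runx2 (671 CPM), Zeb1 (556) and Tbx15 (504), and 5 stayed under 1 CPM. The repair Schwann list had 2 of 8 at 10 CPM or more, the injury factor Jun (748 CPM) and the neurotrophin Bdnf (31.7 CPM). Of 7 melanocyte genes, another crest derivative, only Mitf (149 CPM) passed 1 CPM, and no kept cell reached the gate on melanocyte markers. Jun, which is also an immediate early gene, ranged from 380 to 1447 CPM over the tumors.

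Within the tumor gate, the genes differed between cycling and non-cycling cells. Cells with 4 or more UMIs per 10000 of Mki67, Top2a, Cdk1, Ccnb1, Birc5 and Ube2c (2542 cells) were set against cells below 1 (11013), leaving 1495 between. S100b fell from 39.5, 25.9, 14.9 and 3.87 CPM in non-cycling cells of irradiated 1 to 4 to 2.99, 3.04, 0.887 and 2.16 CPM in their cycling cells. In control 1 to 3 it fell from 35.9, 44.6 and 17.3 to 1.78, 3.31 and 1.03 CPM. S100b was lower in cycling cells of 7 of 7 tumors, by an edgeR log2 difference of -3.55 ± 0.23 (adjusted p = 2.81e-07).

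Gap43 moved the other way. It stood at 17.8, 14.6, 42.1 and 22.5 CPM in non-cycling and 61.6, 59.1, 79.9 and 65.4 CPM in cycling cells of irradiated 1 to 4, and at 24.9, 19.05 and 26.5 against 76.0, 58.7 and 53.3 CPM in control 1 to 3. The rise was seen in 7 of 7 tumors, with an edgeR difference of 1.64 ± 0.13 (adjusted p = 8.04e-07). Prrx1 was lower in cycling cells of 7 of 7 tumors (mean 483 against 730 CPM, edgeR difference -0.44 ± 0.05, adjusted p = 8.62e-07). Twist1 was higher by 0.26 ± 0.05 (mean 217 against 201 CPM, edgeR adjusted p = 0.000215), in 6 of 7 tumors, with control 3 the exception. Its CPM were almost equal in irradiated 3 (208.3 in cycling, 208.1 in non-cycling cells) and control 2 (193.9 and 192.4). The edgeR differences include TMM scaling of the sums, which CPM do not, so they differ in size from the CPM means. All 4 genes tested were thus called, in a comparison where 73.5% of 16319 genes were called (36.7% higher, 36.8% lower), so being called is not particular to them.

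**Figure D3:**
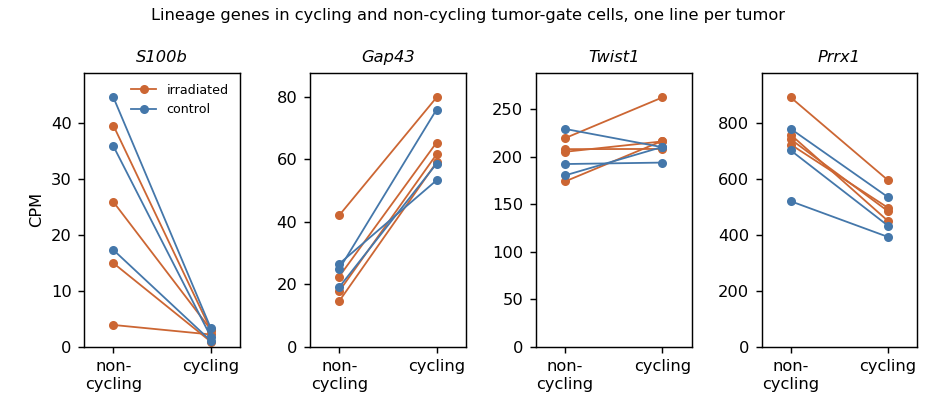
Level of S100b, Gap43, Twist1 and Prrx1 in CPM in non-cycling and cycling tumor-gate cells, with 1 line per tumor (blue control, orange irradiated). S100b and Prrx1 lines fall and Gap43 lines rise in all 7 tumors, and Twist1 lines stay between 174 and 263 CPM.

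The wider lineage lists were read in the same comparison, against the 36.7% of all genes called higher and 36.8% called lower. In the ErbB list 5 of 7 genes tested were higher in cycling cells and 2 lower. The ligands Btc (2.26 on the log2 scale), Hbegf (1.64), Areg (1.42), Nrg1 (0.78) and Ereg (0.60) rose, and the receptors Egfr (-1.73) and Erbb2 (-1.23) fell. In the myelin list none of 8 rose and 4 fell, Cldn19 (-4.02), Ncmap (-1.75), Egr2 (-1.62) and Drp2 (-0.88), all with edgeR adjusted p of 0.00701 or below. In the immature Schwann list 3 of 9 rose (Nes by 2.23, Ncam1 by 0.55, Sox2 by 0.49) and 3 fell, among them Gfap (-2.27) and Pmp22 (-0.43). The crest list had 3 of 7 higher and 1 lower, Pax3 (-0.77). The mesenchymal list had 3 of 17 higher and 12 lower, among them Alx4 (-2.62), Prrx2 (-1.36) and Runx2 (-1.19). In the neurotrophin list 4 of 7 fell and none rose, in the repair list 3 of 6 rose and 1 fell, and of 2 melanocyte genes Mitf fell (-1.72). The counts of the immature Schwann and crest lists were near the shares over all genes. The median over all genes tested was -0.02.

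S100b and Gap43 were seldom in the same tumor cell. At 3000 UMIs per cell 843 tumor-gate cells had an S100b UMI and 1046 a Gap43 UMI, and 11 had both. Gap43 was detected in 1.305% of cells with S100b and in 7.71% of cells without it. By tumor, the pairs were 0.830% and 7.24% in irradiated 1, 0% and 4.99% in irradiated 2, 4.88% and 12.2% in irradiated 3, and 0% and 9.21% in irradiated 4. In the controls they were 1.89% and 8.59%, 0.725% and 5.73%, and 2.56% and 7.40%. The share was lower in S100b cells of 7 of 7 tumors, by 6.36 ± 1.59 percentage points (SD, n = 7; two-sided exact sign-flip permutation p = 0.0156, the smallest that 7 tumors allow). This comparison was chosen after the data had been seen.

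The difference was also present within non-cycling cells. Among 10414 non-cycling cells at that depth, Gap43 was detected in 1.26% of the 791 S100b cells and in 5.61% of the others, a mean difference of -4.30 ± 0.956 percentage points, lower in 7 of 7 tumors (exact sign-flip permutation p = 0.0156). Among 2377 cycling cells only 16 had S100b, too few for the same comparison.

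**Figure D4:**
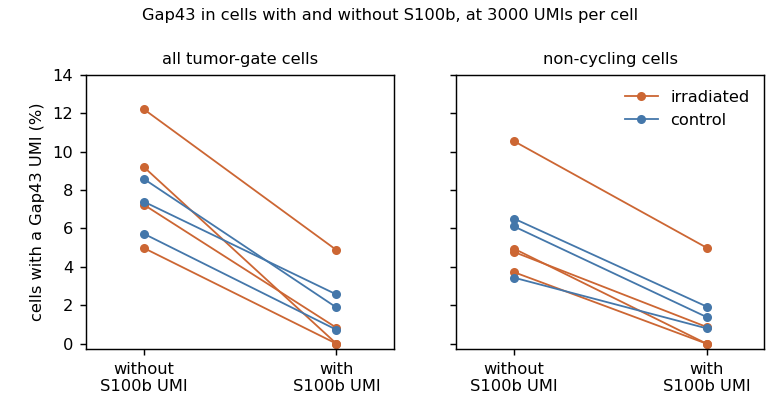
Share of tumor-gate cells with a Gap43 UMI (percent, cells thinned to 3000 UMIs) among cells without and with an S100b UMI, with 1 line per tumor (blue control, orange irradiated). The left panel shows all tumor-gate cells and the right panel non-cycling cells, and every line falls from left to right.

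Cells with and without S100b were next compared across all genes. The cells at 3000 UMIs were summed per tumor by S100b detection and tested by edgeR with the tumor as a block, in which 9.14% of 11574 genes were called higher and 11.8% lower. The S100b cells numbered 10 in irradiated 4 (30000 UMIs), 38 in irradiated 2 and 276 in control 2, the largest set. A gene near 50 CPM has few UMIs in the set of irradiated 4, so its direction in that tumor says little. Among those at 50 CPM or more with the largest differences, named after their values were seen, were the secreted proteins Chil1 (58.8 against 8.24 CPM, 2.69 on the log2 scale, higher in 6 of 7 tumors) and Slpi (849 against 145 CPM, 2.33, 7 of 7), Matn4, a matrilin of cartilage matrix (639 against 135 CPM, 2.27 on the log2 scale, higher in 7 of 7 tumors), Cnmd, chondromodulin (81.1 against 12.2 CPM, 2.64, 6 of 7), Col9a2 (76.0 against 16.6 CPM, 2.15, 6 of 7) and Col2a1, the main cartilage collagen (356 against 73.8 CPM, 2.07, 6 of 7). Lower in S100b cells of every tumor were the chemokines Ccl5 (-4.29) and Ccl2 (-3.20), the contractile gene Acta2 (-3.09), the chromatin factor Hmga2 (-2.65) and the division genes Pclaf (-2.84), Birc5 (-2.73) and Top2a (-2.68). Gap43 was lower (-2.30 ± 0.31), which restates its rare joint detection with S100b in the same cells and is no further support. Twist1 (0.23, adjusted p = 0.0912 in edgeR) and Prrx1 (0.11, adjusted p = 0.419 in edgeR) did not pass.

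The myelin genes Drp2 (1.94), Cldn19 (1.84) and Ncmap (1.63) were higher in the S100b cells, 3 of 5 tested where 9.14% of all genes were called higher, at 7.95 to 14.6 CPM against 1.65 to 4.06 CPM, and Sox10 and Foxd3 had no UMI in either set. The crest factors Pax3 (0.52) and Sox9 (0.37), a regulator of both crest and cartilage, were higher, 2 of 6 tested. In the ErbB list Erbb2 (0.85) and Egfr (0.64) were higher and Hbegf (-1.88), Ereg (-1.11) and Nrg1 (-0.59) lower. Of 6 immature Schwann genes tested 1 was higher and 1 lower, and of 5 repair Schwann genes 1 was higher and 2 lower. The split was not confined to non-cycling cells. The myelin and ErbB genes named here as higher were lower in cycling cells, and those named as lower were higher there. Whether cycling accounts for these differences was not tested. The median over all genes tested was -0.02.

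Split by Gap43 instead, 25.6% of 11090 genes were called (13.7% higher, 12% lower). S100b was lower in Gap43 cells (-2.47 ± 0.32 on the log2 scale), which again restates the joint detection in the same cells. Prrx1 was lower (-0.36, adjusted p = 0.000147 in edgeR) and Twist1 did not pass (0.07, adjusted p = 0.628 in edgeR). Higher in Gap43 cells were Pclaf (1.27), the serine synthesis enzyme Psat1 (1.13), Acta2 (1.06) and the division genes Ccna2 (1.04) and Mki67 (0.99), and lower in every tumor were Matn4 (-2.12), Col2a1 (-1.996), Mme (-1.65) and the netrin receptor Unc5c (-1.62).

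No gene was called different between irradiated and control tumor cells. In the edgeR fit of irradiated against control tumor-gate sums, 0 of 17348 genes passed (0% called, either direction), 235 had an unadjusted p under 0.05, and DESeq2 also called 0. S100b averaged 14.8 CPM in irradiated and 22.4 CPM in control tumors, a log2 difference of -0.59 ± 0.67. Gap43 (39.3 against 36.8 CPM) differed by 0.02 ± 0.24, Twist1 (205 against 198 CPM) by -0.02 ± 0.15 and Prrx1 (689 against 597 CPM) by 0.15 ± 0.14, each with an edgeR adjusted p of 0.999. Sox10, Erbb3, Foxd3 and Ngfr had too few UMIs to be fitted. Of the genes tested, 398 (2.29%) had groups that did not overlap, and S100b, Gap43, Twist1 and Prrx1, the ones of the 8 that were tested, were not among them. In the 8 lineage lists 0 genes were called.

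The S100b value rested on which libraries were compared. Libraries were divided into 2 sets by depth, cell number and technical transcripts (irradiated 1 with control 2 and 3, and irradiated 2, 3 and 4 with control 1), the division of 63 with the smallest share of spread within sets. That share was 0.586 against 0.627 for the next division, so the sets were not sharply separate. Within the first set S100b was higher in the irradiated tumor by 0.60 on the log2 CPM scale, and within the second lower (-1.63). Without irradiated 4, whose tumor-gate cells had the lowest S100b level, the difference was -0.26.

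Shares of cells with a UMI were compared at 1 depth as well. At 3000 UMIs S100b was detected in 4.27 ± 2.92% of cells in irradiated and 6.08 ± 3.24% in control tumors (SD, n = 4 and 3; exact permutation p = 0.457). Gap43 was detected in 8.14 ± 3.13% and 6.90 ± 1.49% (exact permutation p = 0.571), and Twist1 in 42.0 ± 2.47% and 41.8 ± 3.00% (exact permutation p = 1). Prrx1 was detected in 80.9 ± 2.13% and 76.4 ± 5.67% (exact permutation p = 0.114), where control 3 stood lowest at 69.9%. Cells with 2 or more of the 6 Schwann and crest genes made up 0.0521 ± 0.0673% and 0.108 ± 0.00699% (exact permutation p = 0.229). The 35 possible splits of 7 tumors allow no two-sided p below 0.0286.

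**Figure D5:**
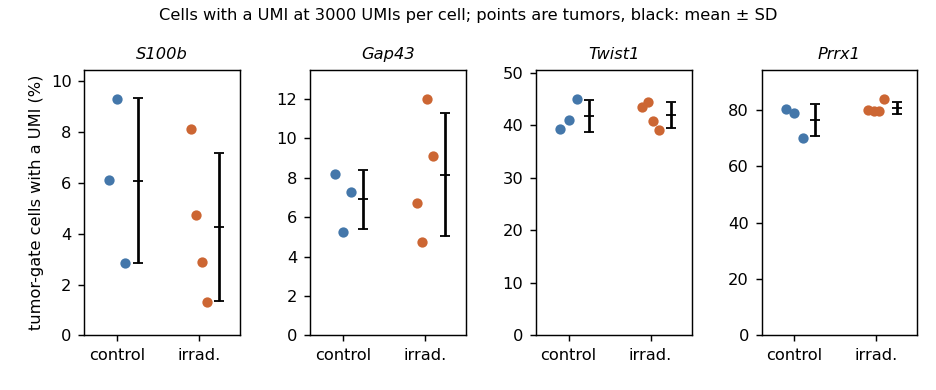
Share of tumor-gate cells with a UMI of each gene (percent, cells thinned to 3000 UMIs), with 1 point per tumor, and the mean with its SD in black. Irradiated and control points overlap in S100b, Gap43 and Twist1, and in Prrx1 control 3 lies below the other 6 tumors at 69.9%.

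For 6 of the genes the transcripts with the most similar pattern were sought over 40 sums of 8 classes and 7 tumors, as Pearson correlations of log2 CPM among the genes with at least 10 CPM on average. Sox10 was closest to the epithelial genes Krt8 (r = 0.908), Tmprss2 (0.891) and Krt19 (0.888). Sox10 stood out in 1 of the 40 sums, the 21 keratinocyte-list cells of irradiated 4 (20.3 CPM, with Krt8 at 2025 CPM), against at most 0.855 CPM in any other sum, so these values describe that sum of 1 tumor. Sums of under 20 cells, which include the host Schwann cells, did not enter. S100b was closest to C1qtnf7 (0.920), Gpr176 (0.920) and the hedgehog effector Gli2 (0.901). Twist1 was closest to Col5a1 (0.941), itself on the tumor list, Col6a3 (0.937) and Shox2 (0.936), and Prrx1 to the procollagen processing enhancer Pcolce (0.958), Lhfp (0.954) and Col6a3 (0.946). Gap43 had lower best values, with Gm12648 (0.794), Eef1g (0.777) and Ppp1r14b (0.769), as did Erbb3 with Atp5d (0.708), Agps (0.697) and Fgb (0.693). Sums of one tumor share a library, and the correlations mainly follow which classes express a gene.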

How the data were processed

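Per the labels and the study's methods, the authors aligned reads to mm10 and counted UMIs with Cell Ranger. The deposited matrices name Cell Ranger 8.0.0 in their headers and hold whole-number UMI counts per gene and cell barcode, not normalized. The annotation release is not given in the sources used here, and the files carry no coordinates. The labels also name Seurat 4.4, from which no values were used.

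Cells further than 3 median absolute deviations from the median of a library in UMIs, genes or mitochondrial share were left out. Gates used UMIs per 10000 of each marker list with at least 3 markers detected, and cells meeting more than 1 gate were set aside. This does not remove every doublet, since the host Schwann gate excludes cells high in the macrophage list and mixed cells could stay in the macrophage gate. No doublet caller was run. List levels for the gates were set after seeing the lists' distributions. The 8 genes, the lists and the comparisons were chosen with earlier results of these data known. The splits by S100b and Gap43 were added after seeing the data.

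Counts were summed per tumor and gate (sums of at least 20 cells between classes) and tested with the edgeR 4.0.16 quasi-likelihood method (R 4.3.3, TMM scaling, low genes removed by filterByExpr, robust fit). Adjusted p-values follow Benjamini and Hochberg across every gene of a fit, with a threshold of 0.05. The tumor was a block in comparisons within tumors. DESeq2 1.42.0 was an alternative. The edgeR steps were tested on simulated data. Of 200 genes changed by a log2 value of 2 among 18100, 95.5% were recovered for irradiated against control, with 3.54% false calls, and 99.5% of 200 among 19100 for tumor against macrophage gate, with 6.13% false calls. Smaller changes, such as the differences of S100b, Gap43, Twist1 and Prrx1 between irradiated and control tumors, were not simulated. Single values were compared over tumors by exact permutation (Python 3.11.15, scipy 1.17.1). Libraries held 53496570 to 153044123 UMIs. In the sets of libraries, cell number, depth, mitochondrial share and stress transcripts were used. Genes named from the lists are the 3 of highest level and up to 5 called with the largest change, with further list genes and the genes of the splits named after their values were seen. Promoter sequences are from RefSeq on GRCm38.p6. Those of Sox10, Erbb3 and Gap43 were not used here. Values of some list genes are not reported here.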

Additional observations from a re-analysis of the deposited data

Results flagged for a closer look

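Of 16 groups of 4 to 7 tumors examined, 3 held a tumor that stood apart by Dixon's criterion, where chance flags about 1 in 20. Irradiated 4 had a Prrx1 level of 787 CPM in its tumor-gate cells, against 649 to 667 CPM in the other irradiated tumors. The same tumor had Prrx1 in 84.1% of tumor-gate cells at 3000 UMIs, against 79.7% to 79.9% in the other 3. In the macrophage gate, Prrx1 stood at 9.21 CPM in control 1, against a median of 3.65 CPM over the 7 tumors.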

How the results depend on the processing

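The count of 0 genes called between irradiated and control tumors was the same under DESeq2, other size factors, no filter on low counts, stricter and looser gates, all deposited cells, a term for the set of libraries, a replicate block and with each tumor left out. Replicate numbers did not pair the tumors (correlations of deviations -0.434, -0.0452 and 0.0961, and irradiated 4 has no partner). With the replicate block 0 of the genes were called, and the small differences of Gap43 (-0.0517) and Twist1 (0.0665) changed sign. The cause was not tested. Gap43 also turned negative with the set as a term (-0.0229) and the looser gate (-0.10), Twist1 positive with the set as a term (0.0667). With 1 tumor left out, Gap43 ran from -0.22 to 0.16 and Twist1 from -0.12 to 0.12.

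In shares of cells, S100b was higher in irradiated tumors within the first set (2.03 percentage points), Gap43 ran from -0.0479 to 2.37 points with 1 tumor left out, and Twist1 from -1.04 to 1.88 points, and was -0.537 with all deposited cells. The share with 2 or more of the 6 genes differed by 0.0023 points at 1500 UMIs.

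Against fibroblast-like cells 23% of all genes were called higher in the tumor gate in the main fit. The call of Twist1 was lost there with other size factors (adjusted p = 0.0983 in edgeR) and with single tumors left out, as given above. Under the stricter gate Twist1 was lost (0.141 in edgeR) and S100b gained (0.0394 in edgeR), as without control 3. With every gene of at least 1 UMI kept, Erbb3 was called lower than in macrophage-like and in T/NK-like cells, where 5 of its 8 T/NK UMIs were in irradiated 4. Erbb3 entered that fit mainly through its host counts, so these calls are not read as support. In the main fit 39.9% of all genes were called lower against macrophage-like cells and 35.1% against T/NK-like cells. The 4 cycling differences kept direction and call under every alternative run. The count called between S100b cells and others was 1841 to 2477 with 1 tumor left out, and for Gap43 2165 to 2684. Sox10, Foxd3, Ngfr and Erbb3 had 0 to 52 UMIs in the tumor gate, too few to compare irradiated with control tumors.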

Other observations

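Other neurotrophin genes also stood at different levels in the tumor gate and in pericyte-like cells, given as levels without a test. The receptors Ntrk2 (0.0340 against 42.5 CPM), Ntrk3 (0.396 against 23.6 CPM) and the sorting receptor Sort1 (1.87 against 102 CPM) were at the higher level in the pericyte gate, and Maged1 in the tumor gate (204 against 84.0 CPM). In the same comparison the endothelin receptor Ednrb, a crest and melanoblast gene, was at 0.0415 CPM in the tumor gate and 529 CPM in pericyte-like cells.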
